A study of Bos taurus with 4 samples.

Results

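The genes described here encode the factors that start protein synthesis and extend the growing chain. They were chosen as every transcript probe whose platform gene symbol begins with EIF (eukaryotic initiation factor) or EEF (eukaryotic elongation factor). The rule used symbols and no measured value. It found 90 of the 43794 transcript probes on the array, which stand for 60 genes. By symbol, 13 genes belong to the EIF2 group, 12 to EIF3, 14 to EIF4, 9 to the remaining EIF genes and 9 to EEF. The remaining 3, EIF2C1, EIF2C2 and EIF2C3, carry older names of the Argonaute genes AGO1, AGO2 and AGO3, which act in RNA silencing, and were kept apart.

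Initiation begins when EIF2, loaded with GTP and the initiator tRNA, joins the small ribosomal subunit together with EIF1, EIF1A, EIF3 and EIF5. The EIF4 factors bind the mRNA cap and unwind the 5′ end so that this complex can land and scan to the start codon. EIF2B recharges EIF2 with GTP, and stress kinases that phosphorylate EIF2 block that step. EEF1A then brings each aminoacyl-tRNA and EEF2 moves the ribosome along. In the early embryo these factors first work on mRNA stored in the oocyte and later on transcripts of the embryo's own genome.

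The study compared bovine morulae (Bos taurus) produced in vitro from slaughterhouse ovaries. High glucose (HG) embryos had 5 mM glucose and control glucose (CTL) embryos 0.2 mM in the first of the culture steps in synthetic oviductal fluid, from day 0 to day 3. For the second step, up to day 5, both groups shared the control medium, and collection took place 120 h after in vitro fertilization. Each of the 4 arrays, called areas 1 to 4 after their places on the slide, set 1 HG pool of 10 morulae against 1 CTL pool of 10 morulae in the other dye, so there were 4 pools per group. HG was in Cy5 on areas 1 and 2 and in Cy3 on areas 3 and 4. The labels give Holstein as the breed of the channel 2 embryos. Whether the pools trace back to separate fertilizations is not in the labels, and the p-values then measure only how these pools vary, which may be technical. Values are log2 ratios of HG over CTL, so a value above 0 means more signal in the high glucose pool. Means carry the SD over the 4 areas (n = 4).

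Median raw intensities were 209.6 to 287.1 in Cy3 and 152.9 to 163.4 in Cy5. Of the embryo markers, KRT8, KRT18, CLDN6, POU5F1 and NANOG were measured above background, and CDH1, CDX2 and SOX2 were not on all areas of either group. The median log2 ratio of the 5 measured markers was -0.57, -0.48, -1.24 and -0.92 on areas 1 to 4. The marker lists here were chosen with earlier results of these data known, so counts over them only describe. By limma, 4 of the 5 embryo markers had an unadjusted p under 0.05, all with less signal in HG, where 4.11% of all genes were lower. With adjustment, 0 of the 5 passed (lowest adjusted p = 0.762). Their means were -1.81 ± 0.76 for KRT8, -1.39 ± 1.30 for KRT18, -1.35 ± 0.66 for CLDN6 and -0.54 ± 0.37 for POU5F1, while NANOG was at 0.47 ± 0.65. Areas 1 and 3 stand apart from areas 2 and 4. Of 25 listed cumulus, granulosa and stromal markers, which are genes of the cells that surround the oocyte, 18 were tested, and 14 of these lay below -1 on area 1 and above 1 on area 3. The median log2 ratio of the 18 was -2.06 on area 1, 0.05 on area 2, 2.12 on area 3 and -0.73 on area 4. Of the granulosa steroid genes in that list, STAR read -1.92, 0.40, 2.65 and -1.30 on areas 1 to 4. CYP19A1, the aromatase gene, read -0.83, -0.49, -0.42 and -0.24, low on all areas (limma unadjusted p = 0.0299, adjusted p = 0.762). The matrix gene FN1 was also low on all areas. The list genes CYP11A1, HSD3B1, FSHR, HAS2, INHA and LOX were not above background on all areas of either group, and S100A6 was not analysed here. Over the 20226 tested probes the log2 ratios of areas 1 and 3 had a correlation of -0.44 across probes, against 0.23 for areas 2 and 4. Over the 49 tested EIF and EEF genes it was -0.28 for areas 1 and 3 and 0.14 for areas 2 and 4. Areas 3 and 4, which share a dye order, had 0.27 over these genes. Fewer cells of a type and less RNA per cell cannot be told apart in such pools. The part of the embryo markers, of these cells, of the dye record and of the area in the values below was not tested. Values from areas 2 and 4 alone are given beside the counts and the group medians.

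Translation factor transcripts did not pass the test for a difference between the high and control glucose pools, in either direction. In all, 71 of the 90 member probes (78.9%) met the background criterion, against 46.2% of the probes on the array, and these gave 49 genes that could be tested. The remaining 11 are dealt with at the end. By limma with Benjamini-Hochberg adjustment over 8874 genes, 0 of the 49 were called at an adjusted p of 0.05, and 0% of all tested genes were. At an unadjusted p of 0.05, 1 member, EIF3C, was higher and 2, EIF3D and EIF4E2, were lower, where 2.38% of all genes were higher and 4.11% lower. Together these 3 of 49 stand beside 6.49% of all genes in either direction. By probe, 5 of the 71 tested member probes had an unadjusted limma p under 0.05, 3 of them for EIF4E2, beside 7.06% of all tested probes. With areas 2 and 4 alone, 33 genes of the whole table passed the adjusted threshold and 0 of these were members. The members with the smallest unadjusted p on these areas were EIF4A2 (mean 0.96, unadjusted p = 0.00366, adjusted p = 0.160) and EEF2 (0.89, unadjusted p = 0.00534, adjusted p = 0.184), both by limma. At an unadjusted limma p of 0.05, 7 of the 49 members passed on these areas, beside 1040 of 8874 genes. Means there were 0.80 for EIF5, 0.64 for EIF6, -0.73 for EEF1B, -0.78 for EIF3D and -0.82 for EIF3I. With all areas, the unadjusted 95% confidence interval of a member had a median half-width of 0.61. The adjusted threshold asks for more. In simulated data with 4 areas and 8874 genes, limma recovered 70 of 100 genes changed by 2 on the log2 scale and 95 of 100 changed by 4. Smaller differences may therefore go uncalled. The simulated noise was independent between genes and areas, while areas 1 and 3 had a correlation of -0.44 across probes, so these rates may not hold here.

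The mean was below 0 for 26 of the 49 members (53.1%), next to 53.8% of all tested genes. A mean change of 1.5-fold was reached by 0 members upward and by 2 downward, EIF4A3 and EIF3D, where 2.72% of all genes reached it upward and 4.33% downward. On all 4 areas 3 members (EIF3C, EIF2B5 and EIF1) read higher and 4 (EIF3D, EIF3H, EIF4E2 and EEF1G) read lower. Such 1-sign genes made up 6.03% of the table upward and 8.03% downward, so the members' shares of 6.12% and 8.16% are close to the background. With values from the authors' deposited table, 5 members had 1 sign on all areas in place of 7, next to 13.6% of all genes. By probe, 3 of the 71 member probes were higher on all areas and 6 were lower, where 7.46% and 7.19% of all tested probes were.

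The EIF2 group holds the tRNA carrier, its recharging enzyme and its kinases, and 12 of its 13 genes were tested. Of these, 4 had a mean above 0 and 8 below 0, within -0.50 to 0.27. The largest mean in size was that of EIF2B2, the beta subunit of the EIF2B exchange factor, which read -0.66, 0.17, -0.73 and -0.77 on areas 1 to 4 (mean -0.50 ± 0.45, limma unadjusted p = 0.0662, adjusted p = 0.793). It was low on 3 areas and slightly high on area 2. A second tested EIF2B2 probe had the same order of signs, with -0.41, 0.34, -0.77 and -0.79. EIF2B5, the catalytic epsilon subunit of the same enzyme, read 0.27, 0.38, 0.32 and 0.12 (mean 0.27 ± 0.11, limma unadjusted p = 0.122). All 4 areas were high by a small and even amount, the narrowest spread in the group. Its second tested probe read 0.39, 0.45, 0.67 and -1.07, so on area 4 the probes of this gene disagreed. EIF2B4, the delta subunit, was at 0.41, -0.46, -0.97 and -0.57, high on area 1 only (mean -0.40 ± 0.58). EIF2B1, the alpha subunit, read 0.35, 0.48, -0.64 and -0.75, and EIF2B3, the gamma subunit, read 0.41, 0.43, -0.37 and -0.48. For both, areas 1 and 2 were high and areas 3 and 4 low, a split that follows the dye. These 2 genes are outside the rule for named genes and were picked after their values were seen.

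The 3 subunits of EIF2 itself had nearly the same pattern. EIF2S1, the alpha subunit that the stress kinases phosphorylate, read 0.43, 0.05, -0.53 and -0.09 on areas 1 to 4 (mean -0.03 ± 0.40). EIF2S2, the beta subunit, read 1.03, -0.07, -0.63 and -0.22 (mean 0.03 ± 0.71). EIF2S3, the gamma subunit that binds GTP and the tRNA, read 0.69, -0.33, -0.54 and -0.22 (mean -0.10 ± 0.54). All 3 were high on area 1 and low on areas 3 and 4, and none of their means exceeded the spread between areas. Limma's unadjusted p was between 0.697 for EIF2S3 and 0.928 for EIF2S2.

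The kinases of EIF2 answer different stresses. EIF2AK3 (PERK), which senses misfolded protein in the endoplasmic reticulum, read -0.13, 0.11, -0.14 and -0.23 (mean -0.09 ± 0.14, 95% confidence interval -0.48 to 0.29). EIF2AK4 (GCN2), which senses amino acid shortage, read 0.62, -0.51, 0.32 and -0.31 (mean 0.03 ± 0.53). EIF2AK1, the kinase that senses heme, had a mean of -0.05. The signs of EIF2AK4 alternated between areas, and of the 3 kinases EIF2AK3 varied least. EIF2AK1 and EIF2AK3 were above background on all 4 areas in HG and on 3 of 4 in CTL. EIF2A, a separate initiation factor that can also deliver the initiator tRNA, had a mean of 0.11.

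EIF3 is the large scaffold that holds the small ribosomal subunit ready, and all 12 of its genes on the array by symbol were tested. EIF3A, its largest subunit, was not analysed here. Means were above 0 for 6 and below 0 for 6 of the 12. EIF3D, a subunit that can itself bind the cap of some mRNAs, read -0.49, -0.28, -0.51 and -1.27 (mean -0.64 ± 0.43, 1.56-fold higher signal in CTL, limma unadjusted p = 0.0272, adjusted p = 0.762). It was low on all areas and lowest on area 4, and the array holds 1 probe for it. Without area 4 its unadjusted limma p was 0.0913, and over the alternatives it ran from 0.0125 to 0.242. EIF3H was also low on all areas, at -0.71, -0.19, -0.06 and -0.46 (mean -0.35 ± 0.29, limma unadjusted p = 0.102). Its reading on area 3 was close to 0.

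EIF3C, a core subunit, went the other way, at 0.93, 0.45, 0.40 and 0.17 (mean 0.49 ± 0.32, 1.40-fold, limma unadjusted p = 0.0432, adjusted p = 0.762). Every area was high, area 1 most. Its second probe read -0.11, 0.17, -0.49 and 0.31 (mean -0.03 ± 0.35) and did not repeat this. Over the alternatives, limma's unadjusted p for EIF3C ran from 0.0266 to 0.939, the highest with the sign of area 1 turned. RefSeq lists the symbol as EIF3CL, a near copy of EIF3C, so which copy the probes measure is uncertain.

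Other EIF3 subunits had areas on both sides of 0. EIF3F read 1.02, 0.55, -0.21 and -0.18 by its brightest probe, while its 4 probes had means of 0.29, -0.11, -0.09 and 0.18. EIF3B read -0.41, -0.23, 0.89 and 0.93 (mean 0.29 ± 0.71). EIF3E read 0.62, 0.05, -0.52 and -0.26 (mean -0.03 ± 0.49). EIF3F was higher, and EIF3B lower, on the areas with HG in Cy5 than on those with HG in Cy3. EIF3J, a loosely bound subunit, had a mean of 0.25, high on areas 1, 2 and 4. EIF3I stood out on area 4 with -1.63, against -0.07 to 0.58 on the other areas, and its second probe read -1.60 there. EIF3K, a small subunit, read -0.99, 0.28, 0.37 and -0.95 (mean -0.32 ± 0.75), low on areas 1 and 4 and high on areas 2 and 3. EIF3M was high on area 1 at 0.98 and between -0.34 and -0.02 elsewhere. EIF3L, the partner of EIF3K, read 0.49, 0.48, 0.07 and -0.31 (mean 0.18 ± 0.38). EIF3I, EIF3K, EIF3L and EIF3M were picked after their values were seen.

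EIF4 genes encode the factors at the cap, and 11 of 14 were tested, with 4 means above 0 and 7 below. EIF4E2 (4EHP), a cap-binding protein that in mammals represses translation because it does not recruit the ribosome, read -0.17, -0.48, -0.71 and -0.35 (mean -0.43 ± 0.23, limma unadjusted p = 0.0453, adjusted p = 0.762). Its signal was 1.35-fold higher in CTL. The other probes of EIF4E2 read -0.82, -0.71, -0.34 and -0.25 (mean -0.53 ± 0.28), and -0.56, -0.69, -0.36 and -0.34 (mean -0.49 ± 0.17). Thus all 3 probes were below 0 on every area, though the probe with the largest difference on area 1 had the smallest on area 4. In the authors' deposited table, turned the same way, the brightest of these probes read 0.26 on area 1 and -0.38, -0.87 and -0.41 on areas 2 to 4 (mean -0.35, limma unadjusted p = 0.167). It was therefore not low on all areas there, while the other EIF4E2 probes were. Over the alternatives, limma's unadjusted p for EIF4E2 ran from 0.0171 to 0.773. Of the 619 genes in the table with at least 3 tested probes, 5 (0.808%) had every probe below 0 on all areas, and 1 (0.162%) had every probe above 0. EIF4E2 was 1 of those 5 and the only 1 of the 4 members with that many probes. It was also the only 1 of the 17 members with at least 2 tested probes whose probes were all below 0 on every area, where 1.74% of such genes were. Probes of 1 gene read the same pools on the same arrays, so they are not replicates of the glucose difference. EIF4E2 was also singled out on these same values, so the counts over probes are only a description. In the test over all probes, the lowest adjusted p of any probe was 0.692.

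EIF4E, the cap-binding protein that does recruit the ribosome, read -0.37, 0.50, -0.24 and 0.25 (mean 0.03 ± 0.41). Its 3 probes had means of 0.03, -0.18 and 0.09. High and low areas balanced, and this gene and EIF4E2 were not tested against each other. EIF4E3, another cap-binding protein, was the most uneven, at -0.15, -1.09, 1.59 and 0.74 (mean 0.27 ± 1.15), and was picked after its values were seen. EIF4EBP2, which holds EIF4E back from EIF4G, read 0.21, 0.18, 0.31 and -0.08 (mean 0.16 ± 0.17). EIF4ENIF1 (4E-T), which carries EIF4E into the nucleus and to mRNA storage bodies, was low on area 3 at -1.22 and between -0.27 and 0.09 elsewhere (mean -0.39 ± 0.57). EIF4G2, a scaffold that lacks the EIF4E-binding part of EIF4G, stayed near 0 with -0.33, 0.11, -0.21 and -0.06 (mean -0.12 ± 0.19).

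The EIF4A genes encode RNA helicases. EIF4A1, the main helicase of initiation, read -1.30, 0.09, 0.18 and 0.86 (mean -0.04 ± 0.91). EIF4A2, its close relative, read -0.46, 0.79, -0.90 and 1.13 (mean 0.14 ± 0.97). EIF4A3, which sits in the exon junction complex and not in initiation, read -1.72, 0.01, -0.42 and -0.96 (mean -0.77 ± 0.75, limma unadjusted p = 0.0506, adjusted p = 0.762). All 3 were low on area 1, and EIF4A3 was at 0.01 on area 2, so its difference was not on every area. The helicase stimulator EIF4B read -1.25, 0.38, 0.43 and -0.19 (mean -0.15 ± 0.78). Its relative EIF4H read -1.75, -0.32, 0.18 and 0.38 (mean -0.38 ± 0.96). Both were lowest on area 1, as were EIF4A1 and EIF4A3. A second EIF4H probe read -0.05 there, so its probes disagreed. EIF4B and EIF4H were picked after their values were seen.

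Among the remaining EIF genes, which were grouped by symbol and differ in role, 8 of 9 were tested and 7 had a mean above 0. Of all 8874 tested genes, 4103 had a mean above 0. EIF5, which triggers GTP hydrolysis by EIF2 at the start codon, read 0.81, 0.74, -0.38 and 0.86 (mean 0.51 ± 0.59, 1.42-fold, limma unadjusted p = 0.105, adjusted p = 0.842). It was high on 3 areas and low on area 3. The other EIF5 probes were also above 0 on areas 1, 2 and 4 and below 0 on area 3, where the 3 probes read -0.80, -0.38 and -1.23. EIF6, which keeps the large subunit from joining early, read 0.20, 0.85, -0.27 and 0.43 (mean 0.30 ± 0.47), again low on area 3 only. Its second probe had a mean of -0.24. EIF1, the guard of start codon choice, was high by little on all areas, at 0.25, 0.04, 0.12 and 0.05 (mean 0.12 ± 0.10, limma unadjusted p = 0.472). In the authors' deposited table, turned the same way, this EIF1 probe read -0.09 on area 3, so it was not high on all areas there. The second EIF1 probe read -0.45 on area 3. EIF5B, the GTPase of subunit joining, read 0.31, -0.40, -0.52 and 0.69 (mean 0.02 ± 0.58). EIF5A, which carries the modified residue hypusine and eases difficult peptide bonds, read -0.68, 0.68, -0.39 and -0.09 (mean -0.12 ± 0.59), and its second probe had a mean of 0.35. EIF1AD, named for a domain like that of EIF1A, read 1.20 on area 2 and between -0.09 and 0.03 on the others. EIF1B, a close copy of EIF1, read 0.59, 0.25, -0.67 and 0.53 (mean 0.18 ± 0.58), once more low on area 3 only. EIF1AY, a copy of EIF1A, read 1.06, -0.44, -0.56 and 0.52 (mean 0.14 ± 0.78). Signal from their paralogs cannot be told apart here, and both were picked after their values were seen. EIF1AY was above background on all 4 areas in HG and on 2 of 4 in CTL. It is 1 of the 7 genes with a mean above 0 and was tested only through its HG signal. Requiring signal in both channels dropped it, and the group median was then 0.17.

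Elongation factor genes had 6 of 9 tested, 2 with a mean above 0 and 4 below. EEF1G, the gamma subunit of the complex that recharges EEF1A with GTP, read -0.43, -0.26, -0.14 and -0.90 (mean -0.43 ± 0.33, 1.35-fold higher in CTL, limma unadjusted p = 0.0654, adjusted p = 0.793). Every area was low. EEF1B (now EEF1B2), the subunit that carries out the exchange, read 0.49, -0.79, -0.76 and -0.67 (mean -0.43 ± 0.62), low on 3 areas and high on area 1. EEF1D, the delta subunit, read -0.84, 0.33, 0.20 and -0.29 (mean -0.15 ± 0.53). The 3 exchange subunits thus differed from each other on area 1, where EEF1B was the only one above 0. EEF1A1, the tRNA carrier of elongation, read -0.46, -0.07, 0.21 and 0.08 (mean -0.06 ± 0.29, 95% confidence interval -0.51 to 0.39). It has many close copies in mammalian genomes, so its values may include them. EEF2, which moves the ribosome along the mRNA, read -0.51, 0.89, 0.50 and 0.90 (mean 0.44 ± 0.66, limma unadjusted p = 0.170). It was low on area 1 and high on the others, as was its second probe at -0.50, 0.62, 0.04 and 0.29. EEF1E1, a member of the complex of aminoacyl-tRNA synthetases despite its symbol, read 0.95, 0.38, -0.31 and 0.27 (mean 0.32 ± 0.52).

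The 4 groups named by factor, and the remaining EIF genes, were then compared by their medians. The median of the gene means was -0.04 for EIF2, 0.06 for EIF3, -0.12 for EIF4, 0.16 for the remaining EIF genes and -0.10 for EEF, against -0.02 for all tested genes. The SD of a group's median over the 4 areas was 0.41, 0.33, 0.20, 0.41 and 0.25 in the same order, so each median lay closer to 0 than its own spread. Without area 1 the median was 0.14 for EIF4, 0.08 for EEF and -0.02 for EIF3, so all 3 changed sign. The EIF2 median was 0.05 without area 3 and 0.04 without area 4. Only the median of the remaining EIF genes kept its sign whichever area was left out, at 0.07 to 0.38. On area 3 itself that median was -0.39, with 2 of the 8 genes above 0. With areas 2 and 4 alone the medians were -0.09 for EIF2, -0.07 for EIF3, 0.03 for EIF4, 0.34 for the remaining EIF genes and 0.01 for EEF. Of the 10 pairs of groups, the largest mean difference was between EIF4 and the remaining EIF genes, at -0.35 ± 0.37 (SD over 4 areas), with EIF4 lower on 3 of 4 areas. EIF2 and EIF4 differed by 0.08 ± 0.49, EIF3 and EIF4 by 0.20 ± 0.49, and EIF4 and EEF by -0.04 ± 0.14. In all 10 pairs the mean difference was smaller than its SD over the areas, and since the members were chosen with results known no test of the groups is given.

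The groups parted most on area 1. There the EIF2 median was 0.41 and the EIF3 median 0.54, while EIF4 stood at -0.37 and EEF at -0.45. On area 2 the medians of EIF2, EIF3, EIF4 and EEF lay between 0.03 and 0.14, and on area 4 between -0.24 and -0.06. The remaining EIF genes were at 0.47 on both of those areas and at 0.28 on area 1. On area 3 the medians were -0.52 for EIF2, -0.065 for EIF3, -0.205 for EIF4, -0.39 for the remaining EIF genes and 0.03 for EEF. Of the 12 EIF2 genes, 7 (58.3%) were above 0 on area 1 and below 0 on area 3, and 0 went the opposite way. The remaining EIF genes had the same split, with 5 of 8 (62.5%) and 0. Among the 12 EIF3 genes the counts were 5 and 3. Of the 11 EIF4 genes, 0 were above 0 on area 1 and below 0 on area 3, while 4 (EIF4H, EIF4E3, EIF4B and EIF4A1) were below 0 on area 1 and above 0 on area 3, the direction of the cumulus and stromal markers. The EEF genes had 3 in that direction (EEF2, EEF1D and EEF1A1) and 2 in the other (EEF1B and EEF1E1). For all 49 members the counts were 19 (38.8%) up then down and 10 (20.4%) down then up, where all tested genes had 31% and 32.7%. These counts are a description, since areas 1 and 3 are the ones that stand apart. HG was in Cy5 on area 1 and in Cy3 on area 3, so opposite signs there are also the same sign by dye. The cause was not tested.

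Probes of the same gene give a further view of the error. Of 17 members with several tested probes, 6 had probes with means of opposite sign, against 838 of 1841 genes (45.5%) in the table. These 6 were EIF3C, EIF3F, EIF4E, EIF5, EIF5A and EIF6. The probes of EIF3G had means of -1e-04 and -0.07 and the same sign on each area. EIF3G, the RNA-binding subunit of EIF3, read -0.65, -0.64, 0.74 and 0.55 by one probe and -0.83, -0.45, 0.35 and 0.64 by the other, low on areas 1 and 2 and high on areas 3 and 4. EIF3G was picked after its values were seen.

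Because the dyes were exchanged between areas 2 and 3, each gene could also be read as Cy5 over Cy3, where a constant sign goes with the dye. Of the 49 members, 6 (EIF2B1, EIF2B3, EIF2S1, EIF3E, EIF3F and EIF3I) had Cy5 above Cy3 on all areas and 5 (EIF3B, EIF3G, EIF4E3, EIF4H and EEF1A1) had Cy5 below Cy3, where 8.76% and 8.42% of all genes did. So 11 members kept 1 sign by dye and 7 kept 1 sign by glucose, where 17.2% and 14.1% of all tested genes did. EIF3I read only 3e-04 on area 2. The second probes of EIF3I, EIF4H and EEF1A1 and some EIF3F probes did not keep 1 sign by dye, while that of EIF3G did. In a limma fit with a dye term, 0 members and 0% of all genes had an adjusted p under the threshold for the dye. The unadjusted p was under 0.05 for 6 members and 6.32% of all genes. The smallest were 0.00864 for EIF3G and 0.0103 for EIF3B by limma, unadjusted, and the mean Cy5 over Cy3 log2 ratios were -0.65 ± 0.08 for EIF3G and -0.61 ± 0.35 for EIF3B.

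Another 55 genes of translation were listed, covering termination, poly(A) binding, signalling to the ribosome and the mitochondrial factors. On the array 51 had a probe and 44 were tested, of which 0 passed limma's adjusted threshold in either direction, next to 0% of all genes. Means were above 0 for 15 and below 0 for 29, with a median of -0.07 against -0.02 for all tested genes. By limma's unadjusted p, 0 were higher and 1 was lower at 0.05, where 2.38% and 4.11% of all genes were. YBX1, a protein that packages mRNA and limits its translation, read -1.30, -0.77, -0.34 and -0.99 (mean -0.85 ± 0.40, limma unadjusted p = 0.00727, adjusted p = 0.762). All 4 areas were low. PDCD4, an inhibitor of the EIF4A helicase, was at -0.75, -0.75, -0.12 and -0.25 (mean -0.47 ± 0.33), and PAIP1, a partner of the poly(A)-binding protein, at -0.96, -0.36, -0.14 and -0.14 (mean -0.40 ± 0.39). DPH2, which takes part in making the diphthamide residue of EEF2, had a mean of -0.37 ± 0.36. These 4 and the mitochondrial initiation factor MTIF3 were below 0 on all areas, and 0 of the 44 were above 0 on all, where 8.03% and 6.03% of all genes were. ATF4, the transcription factor whose mRNA is translated when EIF2 is phosphorylated, read 0.11, -0.63, -0.22 and -1.15 (mean -0.47 ± 0.54). RACK1, a protein of the small ribosomal subunit, read -1.29, -0.05, 0.21 and -1.02 (mean -0.54 ± 0.73).

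The 11 members that could not be tested had no probe above background on all 4 areas of either group. They were the Argonaute genes EIF2C1, EIF2C2 and EIF2C3, EIF2AK2 (PKR, the kinase that senses double-stranded RNA), EIF4E1B (a form of EIF4E known from oocytes in mouse), EIF4EBP1 (the best known brake on EIF4E), EIF4G3 (a cap scaffold), EIF5A2, EEF1A2 (the muscle and nerve form of EEF1A), EEF2K (the kinase that halts EEF2) and EEFSEC (the selenocysteine carrier). Of these, EIF2AK2 and EIF5A2 came closest to the criterion, with probes above background on 3 of 4 areas in both groups. Of EIF4EBP1, 1 probe was above background on 0 areas and the other on 1 area of CTL, so its level can only be called not well above background. EIF4G1 and EIF1AX were not analysed here.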

How the data were processed

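Each scanner file held raw spot intensities of the Cy3 and Cy5 channels with local background, not normalized, per the file headers. The scanner is not given in the sources used here. The authors deposited a table of log2 ratios, which ran as Cy5 over Cy3 and correlated with the values computed here at 0.976 to 0.993 per area (slopes 0.911 to 0.948, column medians between -0.01 and 0.02). Its background correction and normalization remain unknown, and it served as an alternative. For the authors' own steps, limma is named in the submitters' processing notes, with no version.

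Mean pixel intensities were corrected with normexp (offset 50) and normalized by loess within each area, and control spots had weight 0 there (limma 3.58.1, R 4.3.3). Between 29 and 151 of 45220 spots per area were marked as ignored and set to missing. Background was defined per area and channel by 153 negative control spots, and a probe had to lie more than 2 SD above their mean on the log2 scale. Probes that did so in HG or in CTL on all 4 areas were tested, and the brightest represented its gene. Ratios were turned to HG over CTL by the labelled dyes and fitted against 0 with lmFit and eBayes, two-sided, with Benjamini-Hochberg adjustment over all tested genes or probes and a threshold of 0.05. The model was tested on simulated data. The number of arrays, 4, limits the precision, and all were areas of 1 slide. For the sign of Cy5 over Cy3 the ratios were left unturned.

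The platform annotation gave 1 symbol for 21790 probes, several for 0, and left 22004 unnamed here. RefSeq's ARS-UCD2.0 gene list holds 55 of the 60 member symbols as they stand and 5 as synonyms of newer ones. Values by area are given for the 4 genes of each group with the smallest unadjusted p, for a fixed set of members, for probes that differ in direction, and for up to 6 genes of the further translation list. The members, lists, tests and alternatives were chosen with earlier results of these data known. Alternatives were a dye term, the deposited table, no background correction, median pixels, 2 other normalizations, 2 other filters, the mean of a gene's probes, leaving out areas, and turning the sign of area 1 or area 3.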

Additional observations from a re-analysis of the deposited data

Results flagged for a closer look

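For the named translation factor genes and the 5 group medians, 39 in all, the 4 areas were examined for 1 value far from the other 3 (Dixon's criterion). In 4 genes and 0 group medians there was one, and chance alone marks about 1 in 20. For EEF1B, an exchange subunit of elongation, area 1 read 0.49 against -0.79 to -0.67 on the others. For EIF2B2, an exchange subunit of initiation, area 2 read 0.17 against -0.77 to -0.66. For EIF5, the GTPase-activating factor, area 3 read -0.38 against 0.74 to 0.86. For EIF1AD it was area 2, with 1.20 against -0.09 to 0.03. Of the 4 values, 2 fall on area 2 and 1 each on areas 1 and 3, the areas that stand apart by the cumulus and stromal markers.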

How the results depend on the processing

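In every setting but areas 2 and 4 only, 0 genes of the table passed the adjusted threshold, and there 33 did. Members called numbered 0 in all settings; the lowest adjusted p of a member was 0.160 with areas 2 and 4 only. The lowest over the other settings lay between 0.406 and 1.00. The HG and CTL pools of 1 number share an array, so each ratio is already the paired value and the main fit was the paired analysis. Members with 1 sign on all areas numbered 7, 4 by the mean of all tested probes, 10 to 14 with 1 area left out and 23 with areas 2 and 4 only, where fewer areas must share a sign (21.9 to 31.5% and 53.9% of all genes). The EIF4 median was -0.12, 0.22 with the sign of area 1 turned and -0.20 to 0.14 with 1 area left out. Median centring gave 110 genes higher and 492 lower at an unadjusted p of 0.05 by limma against 211 and 365, and moved the median of all genes to -0.08. Of 639 values of 40 named genes, 60 changed sign, and 14 genes never did; for the other 15 members 43 of 238 did. The cause was not tested. Reversed means were, in the deposited table, EIF2S1 4e-04; with median pixels, EIF3E 0.0507; with median centring, EIF2AK4 -0.0489, EIF2S2 -1e-04, EIF4E -0.0606 and EIF5B -0.0507; with scale normalization, EIF2AK4 -0.0122 and EIF4A1 0.0101; with the mean of probes, EIF4E -0.0201 and EIF5A 0.11. With areas 2 and 4 only they were EEF1D 0.0208, EEF1A1 0.0062, EIF2AK4 -0.41, EIF2S2 -0.14, EIF4G2 0.0238, EIF4A1 0.48 and EIF5A 0.30. With the sign of area 3 turned they were EIF2B4 0.0856, EIF2S3 0.17, EIF2S1 0.23, EIF2AK4 -0.13, EIF3B -0.15, EIF3E 0.23, EIF4ENIF1 0.22, EIF4EBP2 -0.0012, EIF5A 0.0761 and DPH2 0.0829. With the sign of area 1 turned they were EEF1E1 -0.15, EEF1D 0.27, EEF1A1 0.17, EIF2AK4 -0.28, EIF2S2 -0.49, EIF3H 0.0013, EIF3F -0.22, EIF4A3 0.091, EIF4G2 0.0433, EIF4A1 0.61, EIF1 -0.0114, EIF5A 0.22, EIF5B -0.14, PAIP1 0.079 and RACK1 0.11. With 1 area left out the means ran from -0.31 to 0.0794 (EEF1D), -0.15 to 0.0748 (EEF1A1), -0.17 to 0.21 (EIF2AK4), -0.31 to 0.25 (EIF2S2), -0.36 to 0.0467 (EIF2S3), -0.19 to 0.13 (EIF2S1), -0.24 to 0.13 (EIF3E), -0.34 to 0.38 (EIF4A1), -0.19 to 0.49 (EIF4A2), -0.12 to 0.17 (EIF4E), -0.39 to 0.067 (EIF5A), -0.20 to 0.20 (EIF5B) and -0.0142 to 0.41 (EIF1AD). Requiring signal in both channels left 46 members (EIF2AK1, EIF2AK3 and EIF1AY dropped). Signal over background limits the 11 untested members.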

Other observations

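The further translation genes can be described by role, with no test. Of the 8 mitochondrial factors (TUFM, TSFM, GFM1, GFM2, MTIF2, MTIF3, MTRF1 and MTRF1L), which run protein synthesis inside mitochondria, 7 were above 0 on area 1. Below 0 were 7 on area 2, 7 on area 3 and 5 on area 4. In all, 6 of the 8 were above 0 on area 1 and below 0 on area 3, where 31% of all tested genes were. The mitochondrial factors had median log2 ratios of high over control glucose of 0.44, -0.14, -0.38 and -0.22 on areas 1 to 4 (median of the gene means -0.16, SD of the area medians 0.36). Their members MTIF3 and TSFM had means of -0.21 ± 0.14 and 0.24 ± 0.61 (n = 4).

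The 6 termination and recycling genes (ETF1, GSPT1, GSPT2, ABCE1, PELO and HBS1L), which release the finished chain and free the ribosome, had 5 means below 0 and 1 above. Of all tested genes, 53.8% had a mean below 0. The area medians of the 6 were -0.11, -0.05, -0.26 and -0.41, with an SD of 0.16. Genes of poly(A) and 5′ end binding had 3 means above 0 and 4 below. The counts were 2 and 3 for the EIF2 stress response, and 3 and 2 for mTOR and MNK signalling. The poly(A)-binding protein PABPC1 read -0.02, 0.05, 0.20 and 0.17 (mean 0.10 ± 0.10), and the ribosomal protein RPS6, a target of the mTOR pathway, -0.15, -0.02, 0.19 and 0.07 (mean 0.02 ± 0.14). Both varied little between areas.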
